A study of Mus musculus with 14 samples.

Results

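The genes described here are the amino acid transporters of 3 mouse tumour cell lines. They were chosen as all genes other than pseudogenes whose symbol starts with Slc1a, Slc3a, Slc6a, Slc7a, Slc36a, Slc38a or Slc43a. A gene also had to reach a mean of 0.5 CPM, counts scaled to library size, in at least 1 of 6 groups of libraries. Of 34866 gene identifiers measured, 64 carried such a symbol and 38 of these reached the level. The members include 37 carrier genes and Slc7a6os, a gene next to Slc7a6 that shares its name and encodes no carrier. Just inside the level were Slc7a2 at 0.507 CPM and Slc6a20b at 0.510 in their highest group. Just outside it were Slc43a1 at 0.443, Slc3a1 at 0.438 and Slc6a19 at 0.410.

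The study asked how tumour cells respond when RIG-I, a sensor of viral RNA in the cytosol, is activated inside them. CT26 is a colorectal carcinoma of BALB/c mice, E0771 a mammary cancer of C57BL/6 mice and MC38 a colon adenocarcinoma of C57BL/6 mice. Wells of 100000 cells received 0.5 ug/ml of an agonist, either for RIG-I or a control, and after 24 h poly(A)+ RNA was sequenced from stranded libraries. CT26 had 3 libraries per agonist, and E0771 and MC38 had 2 per agonist. All medium held fetal bovine serum, but CT26 and E0771 grew in RPMI and MC38 in DMEM. Strain sets CT26 apart from the other lines, medium sets MC38 apart, and each line has its own deposited table. The count columns of CT26 also carry names of another form than those of E0771 and MC38. None of these can be told apart from the line. No untreated cells were analysed here, so each effect is the RIG-I agonist relative to the control agonist. The labels do not say whether replicates were separate cultures, and p-values then measure only the spread between these samples, which may be technical.

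Mammalian cells import amino acids through carrier families that differ in their driving force and their cargo. Slc1 and Slc38 carriers use the sodium gradient, Slc6 carriers use sodium and chloride, and Slc36 carriers use protons. The light chains of the Slc7 family reach the cell surface bound to a glycoprotein heavy chain, of which Slc3a2 is the widespread form, and mostly exchange an amino acid inside for another outside. In tumour cells these carriers supply glutamine, leucine, arginine and cystine for protein synthesis, for mTORC1 signalling and for glutathione. Several of their genes are known targets of ATF4, the transcription factor of the amino acid response. Some members carry other cargo: Slc6a8 takes up creatine, Slc6a2 noradrenaline, Slc6a4 serotonin, and Slc43a3 purine nucleobases.

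CT26 libraries were the deepest, with 32826574 to 40563997 counts, while E0771 libraries held 12413285 to 13399182 and MC38 libraries 12347249 to 18964452. All 7 genes listed as a check of the agonist rose in every line, among them Ifnb1, the gene of interferon beta. Mean Ifnb1 went from 0.138 to 110 CPM in CT26, from 0.0389 to 13.7 CPM in E0771 cells and from 0.0768 to 3.52 CPM in MC38 cells. The summed level of the 7 genes rose from 620 to 698 CPM per library to 3980 to 4070 in CT26, from 64.9 to 118 to 1960 to 2020 in E0771, and from 723 to 724 to 2660 to 2690 in MC38. Epithelial markers were largely absent for lines of carcinoma origin: Epcam was at or near 0 everywhere, Krt8 stood at 250 CPM in E0771 controls, Krt18 at 22.7 in CT26 controls, and the 7 markers summed to 0.257 to 0.614 CPM in MC38 controls. Vim, a mesenchymal marker, stood at 2000 to 3550 CPM in controls and at 1610 to 3130 with the RIG-I agonist. Of 5 mesenchymal markers, 5 reached 0.5 CPM in CT26 and MC38 controls and 3 in E0771 controls. In CT26, E0771 and MC38 controls, Fn1 stood at 1300, 0.199 and 833 CPM and Cdh2 at 87.6, 0 and 38.5. Zeb1 stood at 43.2, 64.4 and 9.1 CPM and Col1a1 at 141, 56.8 and 3.22, in the same order. Leukocyte markers summed to 3.28 to 16.8 CPM, with Ptprc and Cd3e at or near 0. In CT26, E0771 and MC38 controls most of this sum was Lyz2, at 0.559, 9.28 and 2.11 CPM, and Cd68, at 2.98, 5.18 and 3.45. Endothelial markers summed to 1.05 to 16.2 CPM. Among these, Pecam1 stood at 1.45, 9.65 and 10.2 CPM in the same controls, and Cdh5 at 3.36 in MC38 controls. Replicates were closest in MC38, with a fitted coefficient of variation of 0.0304, and farthest apart in E0771 at 0.202, with CT26 at 0.102.

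Expression of the 37 carriers was concentrated in a handful of genes. Their summed level per kilobase of exon was 572 ± 29.4 CPM per kb in CT26 controls (SD, n = 3), 837 ± 170 in E0771 controls (SD, n = 2) and 1100 ± 8.97 in MC38 controls (SD, n = 2). The 5 highest carriers held 73.6%, 68.4% and 75.0% of these sums. In CT26 controls the order per kb was Slc7a5 at 110 ± 13.2 CPM per kb, Slc1a5 at 99.2 ± 5.86, Slc3a2 at 89.6 ± 5.39, Slc38a6 at 68.8 ± 2.99 and Slc38a2 at 54.2 ± 1.52 (SD, n = 3). Slc7a5 and Slc1a5 differed by less than the SD of Slc7a5. In E0771 controls it was Slc7a5 at 263 ± 109, Slc3a2 at 136 ± 36.2, Slc38a6 at 65.0 ± 11.8, Slc6a8 at 57.7 ± 18.7 and Slc6a6 at 53.5 ± 4.78 (SD, n = 2), and the last 3 differed by less than their spread. In MC38 controls Slc38a6 at 259 ± 8.49 and Slc7a5 at 258 ± 3.34 could not be ordered, and Slc3a2 at 136 ± 1.21, Slc6a6 at 94.8 ± 2.45 and Slc38a2 at 77.6 ± 0.262 followed (SD, n = 2). On merged exon length, the leucine carrier Slc7a5 and its heavy chain Slc3a2 were thus among the top 3 in each line. The order, sums and shares depend on the length used. Per kb of the longest transcript, Slc1a5 in CT26 controls was at 147, above Slc7a5 at 116 and Slc3a2 at 112. Slc38a6 has 7783 bases of merged exon but 3927 in its longest transcript, so it stands higher on that scale. For Slc7a5 the lengths are 3708 and 3517.

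With the RIG-I agonist the summed level per kb was 522 ± 6.96 CPM per kb in CT26 (SD, n = 3), 822 ± 107 in E0771 and 929 ± 5.31 in MC38 (SD, n = 2). The heavy chain took a larger share of it in CT26, 23.0% against 15.7% in controls, and in MC38, 16.3% against 12.4%, while in E0771 it held 15.6% against 16.1%. Slc38a6 went from 23.5% to 13.0% in MC38. There Slc3a2 itself went from 136 to 152 CPM per kb while the sum went from 1100 to 929, so its share also moved with the sum. Slc38a6, whose level is uncertain as described below, is part of all these sums and shares, those of the controls included.

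**Figure D1:**
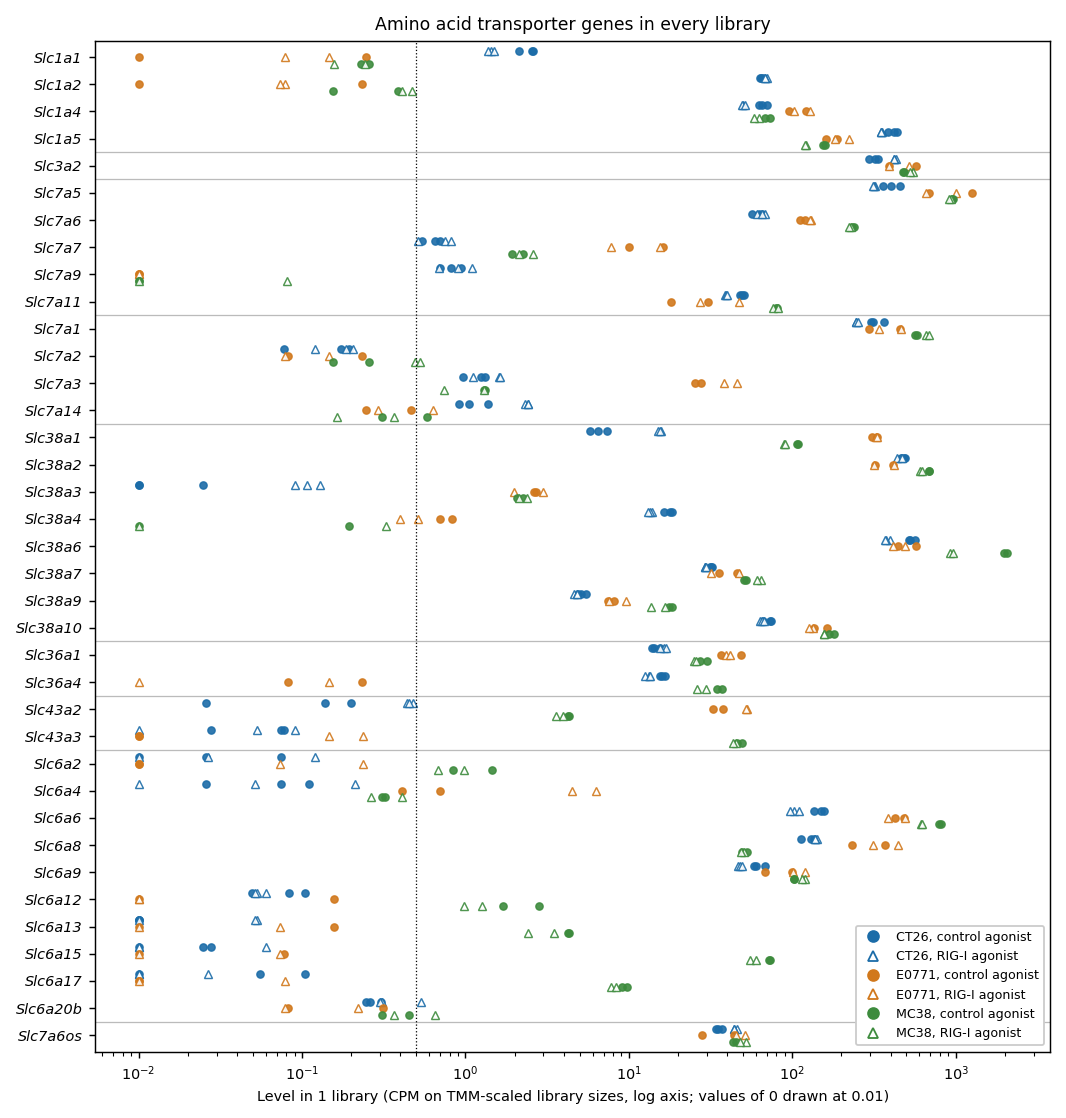
Level of 37 members in every library, in CPM on a log axis, with members grouped by role and lines by colour; filled dots are control agonist, open triangles RIG-I agonist, a value of 0 is drawn at 0.01 and the dotted line marks 0.5 CPM. Most members sit in the same decade under both agonists, and the widest gaps are between lines, such as Slc38a1 at a mean of 6.55 CPM in CT26 controls and 319 in E0771 controls.

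The RIG-I agonist changed many members in CT26 and MC38 and none past the threshold in E0771. In CT26, 28 members passed the filter on low counts and 16 had an adjusted p under 0.05, of which 5 were higher and 11 lower. Over all 13893 genes tested in that line, 19.8% were called higher and 18.6% lower, against 17.9% and 39.3% of the members tested. In MC38, 29 members were tested, 4 were higher and 10 lower, or 13.8% and 34.5%, beside 18.9% and 17.0% of 12387 genes. In E0771, 23 members were tested and none was called by edgeR's quasi-likelihood test, beside 1.53% of 11728 genes called higher and 0.0256% lower. There, 3 members had an unadjusted p under 0.05, beside 1242 of all 11728 genes. DESeq2 called 1 member, Slc6a4, beside 370 genes higher and 45 lower of 13218. With 1 spread shared by all 14 libraries edgeR called Slc6a4 and Slc7a3 higher in E0771, beside 948 genes higher and 639 lower of 14657. The members tested had a median log2 fold change of -0.09 (CT26), 0.09 (E0771) and -0.17 (MC38), where the median of all genes tested was 0.00, -0.01 and -0.00.

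Of the 22 members tested in both CT26 and MC38, 9 were called in both and 6 of these moved the same way. Over the 11539 genes tested in both lines, 19.1% were called in both, 16.4% in the same direction and 2.72% in opposite ones. Slc3a2 rose in both lines, and Slc6a6, Slc1a5, Slc1a4, Slc38a6 and Slc36a4 fell in both. The other 3 were called in opposite directions: Slc38a1 rose in CT26 and fell in MC38, and Slc7a1 and Slc6a9 fell in CT26 and rose in MC38. A further 4 of the 22 were called in CT26 alone, beside 21.2% of all genes, and 3 in MC38 alone, beside 17.6%. In neither line 6 of the 22 were called, beside 42.1%. Of the 7 called in 1 of the lines, Slc43a2 was the member that also passed the test of the difference between the lines. Slc1a1, Slc7a14 and Slc38a4 were called in CT26 and not tested in MC38, and Slc6a12 and Slc6a15 were called in MC38 and not tested in CT26. The other 17 members were called in no line. Changes were mostly small, from -0.76 to 1.88 on the log2 scale in CT26 and from -1.10 to 0.28 in MC38. The MC38 calls rest on the close agreement of that line's own libraries: with 1 estimate of the spread shared by all 14 libraries, Slc38a6 and Slc1a5 were the 2 of 14 that were still called. DESeq2 still called 9 of the 14, without Slc1a4, Slc36a4, Slc38a10, Slc6a12 and Slc6a9. In CT26, 10 of the 16 were still called with the shared spread, and Slc1a1, Slc38a4, Slc3a2, Slc7a11, Slc7a5 and Slc7a6os were not. Fewer calls were not particular to the members. Over all genes in MC38, 625 were higher and 374 lower of 14657 with the shared spread, instead of 2340 and 2101 of 12387. With DESeq2, 1153 were higher and 804 lower of 11650 there. In CT26, 1520 genes were higher and 1983 lower with the shared spread, instead of 2751 and 2583.

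**Figure D2:**
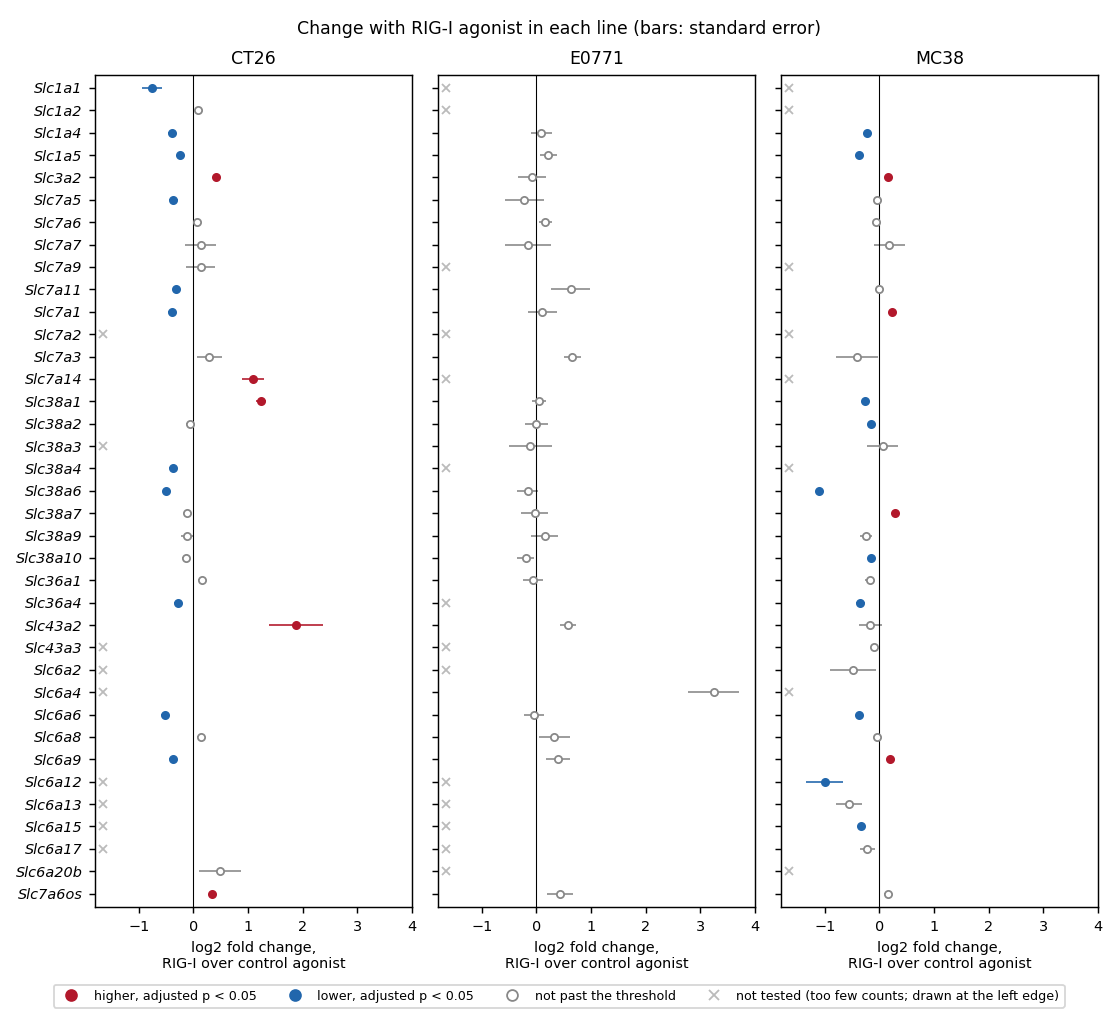
Log2 fold change of 37 members, Slc7a6os included, RIG-I agonist over control agonist, with its standard error, in CT26, E0771 and MC38; red marks members higher and blue members lower at an adjusted p under 0.05, open symbols those not past it, and members not tested sit at the left edge. CT26 shows 5 red and 11 blue points, MC38 4 red and 10 blue, and E0771 open points only.

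The Slc1 carriers fell wherever they were called. Slc1a5, a sodium-dependent exchanger that is a main entry route for glutamine in many tumour cells, was at 436, 417 and 388 CPM in CT26 controls and at 353, 350 and 347 with the RIG-I agonist. Every treated library lay below every control library, a 1.18-fold lower mean (log2 fold change -0.24 ± 0.06, SE; adjusted p = 0.00907). In MC38 it was at 154 and 158 CPM in controls and at 121 and 119 with the RIG-I agonist, 1.30-fold lower without overlap (-0.38 ± 0.04; adjusted p = 2.17e-07). E0771 had 188 and 161 CPM in controls and 223 and 183 in treated libraries, which overlapped (log2 0.22 ± 0.16; adjusted p = 0.757).

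Slc1a4, which exchanges alanine, serine and cysteine, was at 70.0, 62.9 and 65.4 CPM in CT26 controls and at 49.7, 49.0 and 51.7 with the RIG-I agonist. The groups did not overlap and the level was 1.32-fold lower (log2 -0.40 ± 0.06; adjusted p = 0.000221). In MC38 the values were 72.6 and 68.0 CPM in controls and 62.7 and 58.5 with the RIG-I agonist, 1.17-fold lower (-0.22 ± 0.06; adjusted p = 0.00401). That call was lost without MC38 control library 1 or RIG-I library 2, with adjusted p up to 0.0868. In E0771 the libraries of both groups overlapped, with 95.8 and 122 CPM in controls and 103 and 128 in treated cells (log2 0.09 ± 0.19; adjusted p = 0.925).

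The glutamate carriers Slc1a1 and Slc1a2, known best from neurons and astrocytes, reached 0.5 CPM in CT26 and in no other line. Slc1a1 went from 2.42 ± 0.248 CPM in CT26 controls to 1.44 ± 0.0688 with the RIG-I agonist (SD, n = 3), 1.69-fold lower (log2 -0.76 ± 0.18; adjusted p = 0.0045). Its exons overlap 4430402I18Rik on the other strand over 2631 bases, and the use of strand in counting is not given in the sources used here. Slc1a2 stood at 64.8 ± 1.40 CPM in CT26 controls and 68.6 ± 1.43 with the RIG-I agonist (log2 0.08 ± 0.06; adjusted p = 0.275). Both were near 0 in E0771 and MC38, at most 0.44 CPM in any group, and were not tested for the agonist there.

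Among the heteromeric carriers the heavy chain Slc3a2 and the light chains Slc7a5 and Slc7a11 were called in opposite directions in CT26. The heavy chain Slc3a2, on chromosome 19 from 8706882 to 8723369 of GRCm38 (minus strand), was at 334, 319 and 296 CPM in CT26 controls and at 429, 420 and 422 with the RIG-I agonist. All 3 treated libraries were above all 3 controls, a 1.34-fold higher mean (log2 0.42 ± 0.06; adjusted p = 0.000189). In MC38 it went from 482 and 476 CPM to 548 and 522, a smaller 1.11-fold rise, also without overlap (0.16 ± 0.03; adjusted p = 0.00114). E0771 libraries spread widely, with 390 and 571 CPM in controls and 390 and 520 in treated cells (-0.08 ± 0.25; adjusted p = 0.951).

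Of the 5 light chains tested in CT26, Slc7a5 and Slc7a11 fell and none rose. Slc7a5, which brings in leucine and other large neutral amino acids, was at 458, 403 and 360 CPM in CT26 controls and at 321, 315 and 311 with the RIG-I agonist. The controls were all higher and more widely spread, and the treated level was 1.29-fold lower (log2 -0.37 ± 0.08; adjusted p = 0.00275). In MC38 it was at 965 and 947 CPM in controls and 936 and 910 in treated cells, a difference of -0.05 ± 0.03 that did not pass the test (adjusted p = 0.243). E0771 controls had 688 and 1260 CPM and treated libraries 662 and 1010, with the replicates of each group far apart (-0.22 ± 0.36; adjusted p = 0.897).

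Slc7a11, the light chain of the cystine and glutamate exchanger that feeds glutathione synthesis, was at 50.5, 48.0 and 49.0 CPM in CT26 controls and at 38.5, 39.5 and 39.8 with the RIG-I agonist. It was 1.25-fold lower without overlap (log2 -0.32 ± 0.06; adjusted p = 0.000638). In E0771 it went the other way in value, from 18.1 and 30.3 CPM to 27.4 and 47.1, with overlapping libraries (0.63 ± 0.36; adjusted p = 0.654). MC38 held 80.4 and 79.6 CPM in controls and 75.8 and 82.3 in treated cells, and these overlapped as well (-0.01 ± 0.05; adjusted p = 0.892).

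The upstream sequence of Slc7a11 is shown because it holds a pair of the C/EBP-ATF response elements (CARE) through which ATF4 is known to act on amino acid response genes. That of Slc1a4 is shown beside it, as a carrier that fell in both CT26 and MC38 and whose window holds no such match. Both are from RefSeq on GRCm38.p6, minus strand, 5′ to 3′, with capitals marking matches to TGATGNAA on either strand. The first stretch is chr3:50443615-50443764, from 151 to 2 bases before the annotated start, with matches beginning at -66 and -47. The second is chr11:20332714-20332863, from 150 bases before the start to the base before it. Both stretches lie outside annotated exons.
Slc7a11: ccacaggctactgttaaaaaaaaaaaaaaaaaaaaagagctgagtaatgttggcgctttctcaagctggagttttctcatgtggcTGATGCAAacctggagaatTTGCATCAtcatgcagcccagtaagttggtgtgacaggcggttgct
Slc1a4: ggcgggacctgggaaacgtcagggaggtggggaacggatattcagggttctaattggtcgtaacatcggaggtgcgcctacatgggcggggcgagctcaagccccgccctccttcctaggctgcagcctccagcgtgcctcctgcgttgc
RefSeq windows of 250 bases before the start were at hand for 26 of the 38 members, and 2 of these, Slc7a11 and Slc7a7, held a CARE match, while 3.91% of all 27025 genes with a window did. A gene can have several windows, and of the windows 3 of the members' 45 and 3.45% of all 32851 held a match. The interferon element core GAAANNGAAA was found for 0 members and for 3.46% of all genes (2.98% of windows). The antioxidant element core TGACNNNGC was found for 5 members, Slc6a9, Slc6a13, Slc7a1, Slc7a6 and Slc38a2, and for 11.5% of all genes (10.2% of windows). The E-box CACGTG was found for 3, Slc7a14, Slc36a1 and Slc38a7, and for 6.86% of all genes (6.02% of windows). Motifs were searched on both strands, no motif contains another, and a match is a description of letters only.

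The remaining light chains did not pass the test in any line. Slc7a6, an exchanger of cationic for neutral amino acids, was at 61.7 ± 4.25 and 64.6 ± 3.81 CPM in CT26 (SD, n = 3), at 115 ± 4.83 and 129 ± 2.02 in E0771 and at 235 ± 3.70 and 226 ± 3.78 in MC38 (SD, n = 2), control first. Its relative Slc7a7 was highest in E0771, at 13.1 ± 4.29 and 11.6 ± 5.51 CPM (SD, n = 2). Slc7a9, the cystine and cationic amino acid exchanger of kidney and intestine, was at 0.817 ± 0.122 and 0.896 ± 0.202 CPM in CT26 (SD, n = 3) and had 1 count or none in each other group. Slc7a6os, the member that is no carrier, rose in CT26, from 36.9, 33.9 and 35.2 CPM to 45.8, 44.3 and 43.9 without overlap (log2 0.34 ± 0.06; adjusted p = 0.000715). It was at 43.7 and 27.9 against 51.4 and 45.3 CPM in E0771 (0.43 ± 0.24; adjusted p = 0.64) and at 45.4 and 43.5 against 51.8 and 47.8 in MC38 (0.15 ± 0.06; adjusted p = 0.0717), and neither passed the test. In both of these lines the treated libraries were all above the controls, which carries little weight with 2 libraries per group. Of the members tested, the groups did not overlap for 7 of 23 in E0771, 23 of 29 in MC38 and 20 of 28 in CT26. The share over all genes was not counted.

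Slc7a1 was called in opposite directions in CT26 and MC38. Slc7a1, the widespread importer of arginine and lysine, was at 364, 313 and 302 CPM in CT26 controls and at 246, 244 and 251 with the RIG-I agonist, 1.32-fold lower without overlap (log2 -0.40 ± 0.07; adjusted p = 0.000659). In MC38 it was at 561 and 581 CPM in controls and at 660 and 683 with the RIG-I agonist, 1.18-fold higher without overlap (0.23 ± 0.03; adjusted p = 1.25e-05). The test of the difference itself, CT26 minus MC38, gave -0.69 ± 0.23 with an adjusted p of 0.128, so the opposite calls are not shown to differ by that fit. With a weight per line in limma the same difference had an adjusted p of 0.00241, with only these 2 lines in edgeR 0.00014, and with DESeq2 0.0647. In E0771 the values were 294 and 454 CPM in controls and 339 and 466 in treated cells, which overlapped (0.11 ± 0.27; adjusted p = 0.94).

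Slc7a3, a cationic carrier of narrower distribution, was at 26.5 ± 1.64 CPM in E0771 controls and 42.0 ± 5.34 with the RIG-I agonist (SD, n = 2). The E0771 groups did not overlap, but the effect did not pass the test (log2 0.66 ± 0.16; adjusted p = 0.213). In CT26 and MC38 it lay between 1.02 and 1.45 CPM. Slc7a14, a relative of lysosomes, rose in CT26 from 1.11 ± 0.232 to 2.37 ± 0.0455 CPM (SD, n = 3), 2.13-fold (1.09 ± 0.20; adjusted p = 0.000876), and was under 0.5 CPM and untested elsewhere. Slc7a2, the cationic carrier of macrophages and liver, had too few counts for a test in any line and reached 0.507 ± 0.0267 CPM in treated MC38 cells (SD, n = 2).

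The members with the smallest adjusted p in CT26 and in MC38, Slc38a1 and Slc38a6, were both of the Slc38 family. Slc38a1, on chromosome 15 from 96571418 to 96642913 of GRCm38 (minus strand), imports glutamine and other small neutral amino acids with sodium. In CT26 it was at 5.77, 6.48 and 7.40 CPM in controls and at 15.8, 15.1 and 15.5 with the RIG-I agonist. Each treated library was at least 15.1 CPM and no control exceeded 7.40, a 2.36-fold rise (log2 1.24 ± 0.09; adjusted p = 1.69e-07). In MC38 it went from 107 and 108 CPM to 88.9 and 89.9, 1.20-fold lower without overlap (-0.26 ± 0.05; adjusted p = 9.73e-05). In E0771, where it was most abundant, values of 308 and 331 CPM in controls and 324 and 330 in treated cells overlapped (0.04 ± 0.13; adjusted p = 0.957). Its transcripts share 6.59% of their 31-base words with other genes.

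Slc38a6, a member whose cargo is less well defined, lies on chromosome 12 from 73286779 to 73354049 of GRCm38 (plus strand). It was at 1970 and 2060 CPM in MC38 controls and at 917 and 961 with the RIG-I agonist. The treated level was 2.14-fold lower (log2 -1.10 ± 0.04; adjusted p = 2.93e-16). In CT26 it went from 519, 525 and 562 CPM to 398, 374 and 368, 1.41-fold lower without overlap (-0.50 ± 0.06; adjusted p = 4.77e-05). E0771 libraries overlapped, at 441 and 571 CPM in controls and 414 and 493 in treated cells (-0.16 ± 0.19; adjusted p = 0.855).

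The level of Slc38a6 is uncertain, because 31.3% of its 31-base words also occur in other genes. The gene that shares most of them is D10Wsu102e, with 1314 words in 3 of the 8 annotated Slc38a6 transcripts. D10Wsu102e fell too, from 2749 to 1809 mean CPM in CT26 (log2 -0.60 ± 0.06; adjusted p = 3.34e-06) and from 2792 to 1607 in MC38 (-0.80 ± 0.03; adjusted p = 2.26e-14). In E0771 it went from 916 to 739 (-0.31 ± 0.15; adjusted p = 0.572). Its part in the Slc38a6 values was not tested.

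Slc38a2, the other broadly expressed importer of small neutral amino acids and itself a known gene of the amino acid response, passed the test in MC38 but not in CT26 or E0771. It was at 490, 464 and 481 CPM in CT26 controls and 462, 438 and 468 in treated cells, which overlapped (log2 -0.07 ± 0.06; adjusted p = 0.405). In MC38 it fell from 684 and 688 CPM to 601 and 623, 1.12-fold (-0.16 ± 0.03; adjusted p = 0.000493). In E0771 the controls were at 319 and 414 CPM and the treated libraries at 316 and 419 (0.00 ± 0.21; adjusted p = 0.997).

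Slc38a7, a lysosomal exporter of glutamine, rose in MC38 from 51.8 and 50.8 CPM to 64.1 and 61.0, 1.21-fold without overlap (log2 0.28 ± 0.06; adjusted p = 0.000603). In CT26 it was at 32.3, 31.7 and 31.5 CPM in controls and 29.1, 29.4 and 29.5 in treated cells, all lower but not past the test (-0.12 ± 0.06; adjusted p = 0.151). E0771 had 45.8 and 35.4 CPM in controls and 47.4 and 32.0 in treated libraries, which overlapped (-0.03 ± 0.25; adjusted p = 0.982). Slc38a10 fell in MC38, from 173 ± 7.87 to 156 ± 0.368 CPM (SD, n = 2; -0.15 ± 0.04; adjusted p = 0.00699), a call lost without control library 2 (adjusted p = 0.131). Slc38a4, a carrier of liver and placenta, fell in CT26 from 17.6 ± 0.913 to 13.5 ± 0.433 CPM (SD, n = 3; -0.38 ± 0.07; adjusted p = 0.000887). Slc38a9, the lysosomal arginine sensor of mTORC1, was at 5.16 ± 0.31 and 4.74 ± 0.106 CPM in CT26 (SD, n = 3), at 7.77 ± 0.412 and 8.59 ± 1.42 in E0771 and at 17.9 ± 0.547 and 15.2 ± 2.13 in MC38 (SD, n = 2), and passed the test in none. Slc38a3, a glutamine carrier of liver, kidney and brain, stood between 2.16 and 2.68 CPM in E0771 and MC38 controls and had 1 count in the 3 CT26 control libraries together.

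**Figure D3:**
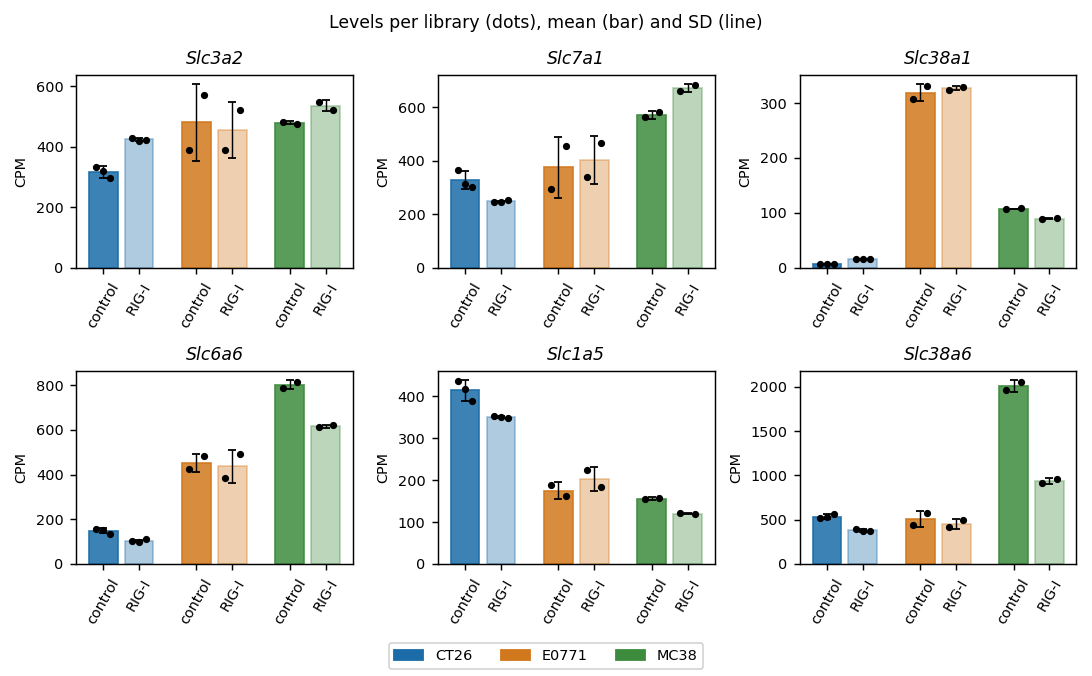
CPM of Slc3a2, Slc7a1, Slc38a1, Slc6a6, Slc1a5 and Slc38a6 by line and agonist; bars are means from 0, dots single libraries and lines 1 SD. In CT26 the treated dots lie apart from the controls for all of these genes, upward for Slc3a2 and Slc38a1 and downward for the others, and in E0771 the dots of both agonists overlap.

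Of the proton-coupled members, Slc36a1 was expressed in all 3 lines and Slc36a4 in CT26 and MC38. Slc36a4, a carrier with high affinity for proline and tryptophan, fell from 16.1 ± 0.552 to 13.1 ± 0.408 CPM in CT26 (SD, n = 3; log2 -0.29 ± 0.07; adjusted p = 0.00469) and from 35.9 ± 1.70 to 27.8 ± 2.39 in MC38 (SD, n = 2; -0.35 ± 0.08; adjusted p = 0.00113). In E0771 it had 4 counts in controls and 2 in treated cells and was not tested. Slc36a1, which exports small amino acids from lysosomes, was at 14.6 ± 0.896 and 16.2 ± 0.736 CPM in CT26 (SD, n = 3), 42.4 ± 8.48 and 40.6 ± 1.75 in E0771 and 28.7 ± 2.06 and 25.4 ± 0.275 in MC38 (SD, n = 2). It passed the test in no line.

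Slc43a2, a sodium-independent facilitator of large neutral amino acids, had its clear expression in E0771. It was singled out after its values were seen. There it went from 32.9 and 37.5 CPM in controls to 52.7 and 52.1 with the RIG-I agonist, without overlap but not past the test (log2 0.58 ± 0.14; adjusted p = 0.213). In CT26 it was called higher, 3.67-fold (1.88 ± 0.50; adjusted p = 0.00904), but on 14 counts in all controls and 50 in all treated libraries, and its mean stayed below 0.5 CPM. In MC38 it was at 4.27 ± 0.0377 and 3.76 ± 0.258 CPM (SD, n = 2; -0.17 ± 0.21; adjusted p = 0.552). Slc43a3, the nucleobase carrier, was at 47.4 ± 2.40 and 44.3 ± 1.04 CPM in MC38 (SD, n = 2; -0.10 ± 0.06; adjusted p = 0.255) and at or near 0 in CT26 and E0771.

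Among the 11 Slc6 members, the taurine carrier Slc6a6 had the highest level per kb in MC38 and fell in 2 lines. It was at 157, 150 and 135 CPM in CT26 controls and at 102, 96.9 and 110 with the RIG-I agonist, 1.44-fold lower without overlap (log2 -0.52 ± 0.07; adjusted p = 3.29e-05). In MC38 it went from 787 and 816 CPM to 612 and 621, 1.30-fold lower without overlap (-0.38 ± 0.03; adjusted p = 1.04e-08). E0771 had 424 and 481 CPM in controls and 383 and 490 in treated cells, which overlapped (-0.05 ± 0.18; adjusted p = 0.956).

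Slc6a9, the glycine carrier, fell in CT26 from 61.8 ± 5.12 to 47.8 ± 1.21 CPM (SD, n = 3; log2 -0.37 ± 0.07; adjusted p = 0.000799) and rose in MC38 from 102 ± 1.24 to 117 ± 4.11 (SD, n = 2; 0.19 ± 0.05; adjusted p = 0.00197). In E0771 it was at 84.0 ± 22.5 and 110 ± 13.0 CPM (SD, n = 2; 0.39 ± 0.22; adjusted p = 0.644). The MC38 rise was not called by DESeq2 (adjusted p = 0.0627). The opposite calls were not past the test of their difference, CT26 minus MC38 (-0.62 ± 0.18; adjusted p = 0.0841). That difference was called for Slc6a9 by DESeq2 (adjusted p = 0.0435), by limma with a weight per line (adjusted p = 0.0009) and by edgeR with only these 2 lines (adjusted p = 0.000152). Its exons overlap those of Ccdc24 on the other strand over 1429 bases. The creatine carrier Slc6a8 was at 135, 130 and 113 CPM in CT26 controls and 141, 138 and 137 in treated cells (0.13 ± 0.06; adjusted p = 0.11). In E0771 it was at 370 and 232 against 444 and 310 CPM (0.33 ± 0.29; adjusted p = 0.806), and in MC38 at 49.0 and 53.1 against 50.6 and 48.6 (-0.04 ± 0.06; adjusted p = 0.626). It passed the test in no line, although the CT26 groups did not overlap.

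Slc6a15, Slc6a12, Slc6a13, Slc6a17 and Slc6a2 reached 0.5 CPM in MC38 and in no other line. Slc6a15, a carrier of branched-chain amino acids and proline best known from neurons, was at 72.4 and 72.6 CPM in MC38 controls and at 55.3 and 59.7 with the RIG-I agonist, 1.26-fold lower without overlap (log2 -0.33 ± 0.06; adjusted p = 7.79e-05). It had 2 counts in the CT26 controls, 2 in treated CT26 cells, and 1 count in each E0771 group. The betaine carrier Slc6a12 was lower in treated MC38 cells, 1.12 ± 0.202 against 2.26 ± 0.807 CPM (SD, n = 2; -1.0 ± 0.34; adjusted p = 0.026). That call was lost without MC38 control library 1 (log2 -0.56 for Slc6a12), RIG-I library 1 (-0.85) or RIG-I library 2 (-1.22), with adjusted p up to 0.413. The GABA carrier Slc6a13 went from 4.27 ± 0.0377 to 2.96 ± 0.763 CPM (-0.56 ± 0.24; adjusted p = 0.0707), the vesicular carrier Slc6a17 from 9.43 ± 0.409 to 8.06 ± 0.353 (-0.22 ± 0.14; adjusted p = 0.228), and Slc6a2 from 1.15 ± 0.44 to 0.83 ± 0.207 (-0.48 ± 0.42; adjusted p = 0.407), all in MC38 with n = 2 and SD, and none passed the test. Slc6a20b, a relative of the imino acid carrier that shares 11.0% of its words with other genes, mostly Slc6a20a, lay between 0.149 and 0.51 CPM in all groups.

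In E0771 the member nearest to the threshold was the serotonin carrier Slc6a4, named here after its values were seen. It was at 0.701 and 0.411 CPM in controls and at 6.32 and 4.47 with the RIG-I agonist, on 14 against 141 counts. The 9.52-fold difference had an adjusted p of 0.0555 (log2 3.25 ± 0.47), and with DESeq2 an adjusted p of 0.000367. In CT26 and MC38 it stayed between 0.0705 and 0.335 CPM in all groups and was not tested within these lines. The difference between the effects in E0771 and MC38 was 3.20 ± 1.14 and did not pass the test (adjusted p = 0.231).

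Most members tested differed in level between the lines, as did most of all genes tested. At control agonist, CT26 had 9 members above and 17 below E0771 among 35 tested, or 25.7% and 48.6%. Of all genes, 37.2% were above and 33.1% below. Against MC38 it had 7 members above and 24 below, or 20.0% and 68.6%, beside 37.8% and 35.8% of all genes. E0771 had 8 members above and 15 below MC38, or 22.9% and 42.9%, beside 31.5% and 32.6%. These counts include genes that became members through 1 line and so had to differ. Among the 20 members at 0.5 CPM or more in all 3 lines, CT26 was above E0771 for 3 and below for 13, above MC38 for 2 and below for 15, and E0771 was above MC38 for 6 and below for 8. Altogether 26 members reached the level in CT26, 25 in E0771 and 31 in MC38. Fold changes between lines come from 1 fit of all 14 libraries, while CPM come from each line's own scaling.

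CT26 had the highest levels of the glutamate carriers and of Slc1a5, and the lowest Slc38a1. Slc1a1, Slc1a2 and Slc7a9 became members through CT26 alone and so had to be lower elsewhere. Their ratios are descriptions only. Slc1a2 was at 64.8 CPM there, while E0771 controls held 3 counts, a ratio of 539 (95% counting interval 184 to 2620). Slc38a4 was at 17.6 CPM in CT26 and on 3 counts in MC38 controls, a ratio of 166 (56.7 to 805). Slc1a5 was 2.56-fold above E0771 and 2.85-fold above MC38. Slc7a9 was at least 6.82-fold above E0771 and at least 7.74-fold above MC38, whose controls had no count. Of the glutamine carriers, Slc38a1 and Slc38a3 were lowest in CT26, while Slc38a2, at 479 CPM there, was above E0771 at 366 and below MC38 at 686. Slc38a1 was 45.0-fold below E0771 and 15.2-fold below MC38. Slc38a3, with its single count, had ratios of 308 (53.4 to 12300) for E0771 over CT26 and of 251 (43.4 to 10100) for MC38 over CT26.

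E0771 had the highest Slc7a3, Slc7a7, Slc43a2, Slc6a8 and Slc38a1 of the 3 lines. The main cationic importer Slc7a1 was not among them, at 374 CPM against 571 in MC38, and Slc7a5 stood at 975 CPM in E0771 and 956 in MC38. Slc7a3 was 20.6-fold above CT26 and 20.2-fold above MC38, and Slc7a7 19.1-fold and 6.19-fold. Slc43a2 was 256-fold above CT26, where it had 14 counts, and 8.16-fold above MC38. Slc6a8 was 2.20-fold above CT26 and 5.84-fold above MC38, and Slc38a1 2.95-fold above MC38. Slc36a4 was nearly absent from E0771, with 4 counts in its controls, against 16.1 CPM in CT26 and 35.9 in MC38.

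MC38 held Slc6 genes that the other lines nearly lacked, and the most Slc7a6 and Slc6a6. Slc6a13, Slc6a15, Slc6a17 and Slc43a3 became members through MC38 alone and so had to be lower elsewhere. Their ratios are descriptions only. Slc6a15 at 72.5 CPM had a ratio of 4190 over CT26 (1160 to 34700) and of 1830 over E0771 (327 to 72200), both against 1 or 2 counts. Slc43a3 was at least 397-fold and Slc6a17 at least 79.4-fold above E0771, and Slc6a13 at least 165-fold above CT26, where the controls had no count. Slc7a6 was 3.55-fold above CT26 and 2.05-fold above E0771, Slc6a6 5.06-fold and 1.79-fold, and Slc38a6 3.50-fold and 4.01-fold. Floors and intervals cover counting error only.

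Whether the agonist acted differently on a member in 2 lines was tested as a difference of log2 fold changes. Of 35 members tested, 4 differed between CT26 and E0771, 2 between CT26 and MC38 and 1 between E0771 and MC38, beside 3.88%, 3.80% and 2.09% of 14657 genes. Slc38a1 was in the first 2 sets, with 1.16 ± 0.12 for CT26 minus E0771 (adjusted p = 0.000131) and 1.45 ± 0.12 for CT26 minus MC38 (adjusted p = 3.36e-05), and both calls held in each alternative run. Slc38a6 fell more in MC38 than in E0771, by 0.93 ± 0.17 (adjusted p = 0.0103). That call was lost when MC38 control library 2 or RIG-I library 1 was left out, with adjusted p up to 0.0777, and with only these 2 lines in the fit (adjusted p = 0.162). For Slc6a9 CT26 minus E0771 was -0.80 ± 0.18 (adjusted p = 0.0305) and for Slc1a5 -0.50 ± 0.13 (adjusted p = 0.0497). Both were lost in 7 of 10 fits that left out 1 library, with adjusted p up to 0.082 and 0.143. The Slc6a9 call was kept without E0771 control library 1 or 2 or RIG-I library 1, and the Slc1a5 call without CT26 control library 3, E0771 control library 1 or E0771 RIG-I library 2. With only the 2 lines the adjusted p was 0.119 for Slc6a9 and 0.231 for Slc1a5. The other calls were on few counts: Slc38a3 at 3.13 ± 0.78 for CT26 minus E0771 (adjusted p = 0.042), on 1 and 12 counts in CT26, and Slc43a2 at 1.99 ± 0.42 for CT26 minus MC38 (adjusted p = 0.0206). The Slc38a3 call was lost in 8 of 10 fits that left out 1 library, all but those without CT26 control library 2 or E0771 RIG-I library 1. It was also lost by DESeq2 (adjusted p = 0.0889), by limma with a weight per line (adjusted p = 0.0915), without the filter (adjusted p = 0.0693) and with only the 2 lines (adjusted p = 0.114). The Slc43a2 call was lost without CT26 RIG-I library 1 or any of the 4 MC38 libraries, with adjusted p up to 0.0776. The comparisons share libraries and are not independent of each other.

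Genes that respond to or use amino acids were followed in lists beside the carriers. Their counts stand beside 19.8% of all genes called higher and 18.6% lower in CT26, and 18.9% and 17.0% in MC38. In E0771 the shares of all genes were 1.53% higher and 0.0256% lower. The ATF4 list, of amino acid response genes, was mixed in CT26 and mostly higher in MC38. In CT26, 9 of 24 were higher and 10 lower (median log2 -0.08), and in MC38 18 were higher and 3 lower (median 0.31). Atf4 itself went from 937 to 1090 mean CPM in CT26 and from 359 to 506 in MC38. Ddit3, the stress transcription factor CHOP, rose in both, by 0.85 ± 0.07 in CT26 and 1.29 ± 0.07 in MC38 on the log2 scale, as did Chac1, a glutathione-degrading enzyme, by 0.95 ± 0.09 and 1.01 ± 0.09. Atf3 rose by 4.81 ± 0.52 in CT26, to 1.07 CPM, and Ppp1r15a, a phosphatase subunit that reverses the stress brake on translation, by 1.0 ± 0.07. Trib3 rose by 0.99 ± 0.04 in MC38. Asparagine synthetase Asns fell in CT26, from 769 to 651 CPM, and rose in MC38, from 279 to 324. In E0771, 1 of 22 was called, Atf3, which rose by 1.87 ± 0.24 (adjusted p = 0.0376).

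The list of cytosolic aminoacyl-tRNA synthetases, which charge tRNAs with amino acids, was mixed in CT26 and mostly higher in MC38. It holds 20 genes of synthetases or their subunits and 3 of proteins that hold the synthetase complex together and charge no tRNA, Aimp1, Aimp2 and Eef1e1. In CT26 4 of 23 were higher, 2 of them complex proteins, and 7 lower, all synthetases, with Eprs at -0.40 ± 0.07 and Lars at -0.35 ± 0.06 on the log2 scale, Aimp2 at 0.26 and Kars at 0.25. In MC38 21 were higher, 18 of the synthetases and the 3 complex proteins, and none lower (median 0.24), led by Wars at 0.60 ± 0.05, from 93.8 to 143 CPM, Sars at 0.43 ± 0.04, Eef1e1 at 0.38 and Kars at 0.35 ± 0.03. None of 23 was called in E0771 (median 0.15). The difference itself, CT26 minus MC38, was called lower for 9 of the 23 genes and higher for none. Of the 24 genes of the ATF4 list, 6 were called lower and 1 higher. Over all 14657 genes in that fit, 267 were lower and 290 higher, or 3.8% in either direction. For CT26 minus E0771, 6 of the 23 synthetase list genes were lower and 0 higher, beside 412 and 157 of all genes. In the ATF4 list 0 were lower and 2 higher. For E0771 minus MC38, 0 of the 23 were called, and 1 gene of the ATF4 list, Atf4, was lower. There, 43 of all genes were lower and 264 higher. The MC38 counts moved with the spread used: with DESeq2 16 genes of the synthetase list and 16 of the ATF4 list were higher, and with the spread shared by 14 libraries 6 and 7.

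Of 14 genes tested in CT26 for tryptophan, glutamine and branched-chain metabolism 12 were lower and 1 higher (median -0.26), beside 18.6% and 19.8% of all genes, among them the transaminases Gpt2 at -0.50 ± 0.07 and Got1 at -0.38 and the kynurenine pathway enzyme Afmid at -0.43. Ido2, a tryptophan-degrading dioxygenase, rose by 1.10 ± 0.13. In MC38 4 of 16 were higher and 2 lower, with Ido1 up by 1.89 ± 0.51 to 1.08 CPM and Bckdhb down by 0.77 on the log2 scale. Arginine and polyamine genes were lower for 7 of 13 and higher for 1 in CT26, where Gamt stood at -0.62 ± 0.11 and the polyamine acetylase Sat1 at 0.57 ± 0.07. In MC38 7 of 16 were higher and 1 lower, with Nos2, the inducible nitric oxide synthase that consumes arginine, at 1.39 ± 0.32 and spermidine synthase Srm at 0.44 ± 0.04.

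For glutathione and cystine use 2 of 14 were higher and 5 lower in CT26, and 6 of 14 higher and 2 lower in MC38. The 2 higher in CT26 and the 2 lower in MC38 are no larger a share than among all genes. Keap1, which restrains the antioxidant factor of Nfe2l2, rose by 0.43 ± 0.06 in CT26 and 0.47 ± 0.05 in MC38, and the quinone reductase Nqo1 fell in both, by 0.80 and 0.49 on the log2 scale. The mTORC1 amino acid sensing list had 2 higher and 4 lower of 28 in CT26, including Seh1l at -0.36 ± 0.06, and 4 higher and 6 lower of 28 in MC38, including Castor2 at -0.82 ± 0.29 and Rragc at 0.27 ± 0.05. Its medians were -0.04 in CT26 and -0.01 in MC38. Of other amino acid carriers outside the 7 families, 6 of 9 were higher in CT26 and none lower (median 0.31), and 2 of 11 were higher and 2 lower in MC38. Slc25a22, the mitochondrial glutamate carrier, rose in all 3 lines, by 1.14 ± 0.07 in CT26, 1.32 ± 0.18 in E0771 (adjusted p = 0.0447) and 0.89 ± 0.06 in MC38. The E0771 call of Slc25a22 was lost without control library 2 (adjusted p = 0.0876) or RIG-I library 2 (adjusted p = 0.0689). In CT26 the lysosomal cationic carrier Pqlc2 rose by 0.81 ± 0.14 and the lysosomal peptide and histidine carrier Slc15a4 by 0.37 ± 0.06.

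The smaller list counts depended on single libraries. In CT26 the genes of the synthetase list called higher went from 4 to 1 without RIG-I library 1 and to 2 without RIG-I library 2 or 3, and those lower from 7 to 4 without RIG-I library 2. The arginine and polyamine genes called lower in CT26 went from 7 to 4 without RIG-I library 1 and to 3 without RIG-I library 2, and those higher in MC38 from 7 to 3 without control library 2 and to 4 without RIG-I library 2. For glutathione the 5 lower in CT26 became 3 without RIG-I library 2, and the 6 higher in MC38 became 3 without control library 1 or RIG-I library 1. The mTORC1 list ranged from 1 to 7 lower in CT26 and from 2 to 5 lower in MC38. Between 17 and 18 ATF4 list genes and between 15 and 19 of the synthetase list were still higher in MC38, and 8 to 10 of the tryptophan, glutamine and branched-chain genes lower in CT26.

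**Figure D4:**
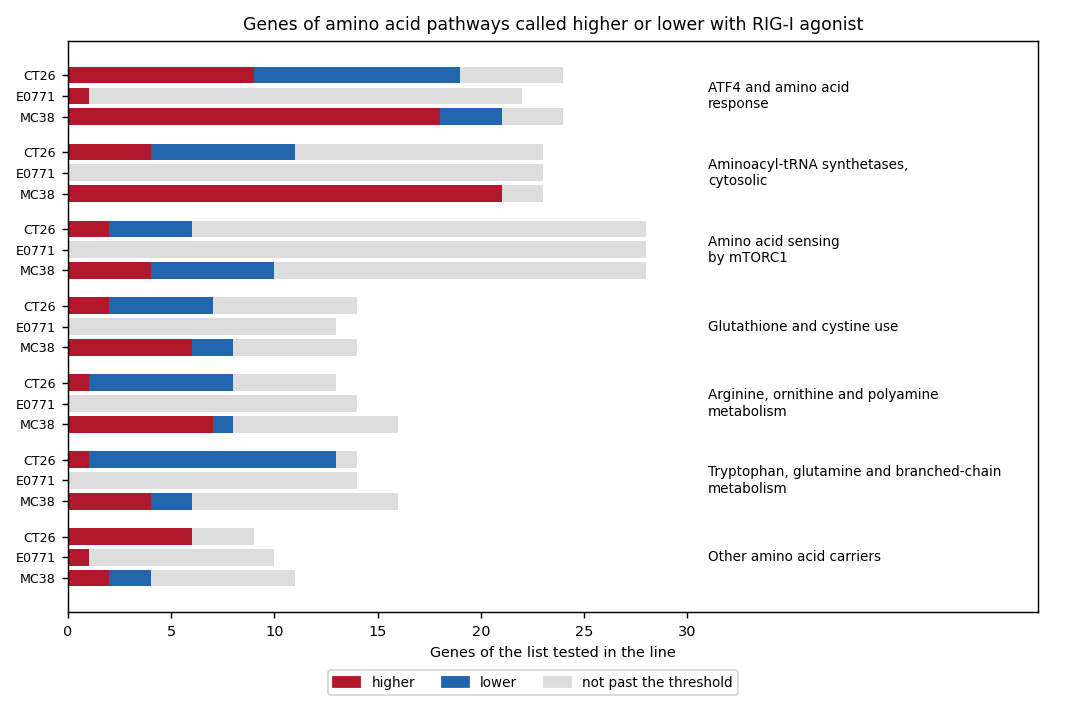
Number of genes in each list that were higher, lower or not past an adjusted p of 0.05 with the RIG-I agonist, by line, as stacked bars over the genes tested. The bar of the synthetase list, its 3 complex proteins included, is 21 of 23 higher in MC38 and 4 higher against 7 lower in CT26, and nearly all genes stay below the threshold in E0771.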

How the data were processed

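Poly(A)+ RNA of 14 libraries, in 6 groups named by the sample titles, was measured. For each line the authors deposited a table of estimated counts of genes, with 34866 identifiers. Salmon, DESeq2 and GRCm38 appear in the submitters' processing notes without roles or versions, and the annotation, trimming and use of strand are not given in the sources used here. Estimated counts divide reads shared by similar genes, so levels of genes with shared sequence are uncertain. Values were rounded, and identifiers were matched to GENCODE M21 for symbols and positions, 32644 exactly, 34652 without their version, with 214 unmatched.

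Each line was fitted with edgeR 4.0.16 in R 4.3.3, by the quasi-likelihood test with robust dispersions, TMM scaling, filterByExpr at a minimum count of 10 and a prior count of 0.125. P-values were adjusted by Benjamini-Hochberg across every gene of the fit, with calls made under 0.05. Differences between lines came from 1 fit of all 14 libraries joined by identifier. CPM are on TMM-scaled library sizes, and errors of fold changes are standard errors. CPM per kb use merged exon length. A count of 0 allows up to 3 counts over a group, which bounds the folds written "at least", and ratios on 1 to 3 counts carry exact 95% intervals.

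Values per library are given for the 12 called members with the smallest adjusted p in any line and for the 5 highest per kb of each line. Each list is described by its counts and up to 4 genes with the largest called change. Of the members, 1 is not reported here. The members and lists were chosen with earlier results of these data known. Alternatives were DESeq2 1.42.0, limma 3.58.1 (voom with a weight per line), other scaling, no filter, a replicate block, a shared spread, only the lines compared, and each library left out. For the lists these alternatives were chosen after seeing the data. The test scripts were tested on simulated data.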

Additional observations from a re-analysis of the deposited data

Results flagged for a closer look

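For 6 members the effect of the RIG-I agonist differed between lines by the test of the difference itself, in the fit of all 14 libraries. Slc38a1 differed in CT26 minus E0771, with 1.16 on the log2 scale, and in CT26 minus MC38, with 1.45. Its rise in CT26 started from 6.55 CPM, against 319 CPM in E0771 controls and 107 in MC38 controls. Both of these calls held in every alternative run, while each of the other 5 was lost in 2 to 8 of the fits that left out 1 library, as given above. Slc38a6 differed by 0.93 in E0771 minus MC38, with shared sequence as described above. The glycine carrier Slc6a9 differed by -0.80 and the glutamine exchanger Slc1a5 by -0.50 in CT26 minus E0771, and in both cases CT26 fell while the E0771 effect did not pass its own test. Slc38a3 differed by 3.13 in CT26 minus E0771 and rests on 1 and 12 counts in CT26. Slc43a2 differed by 1.99 in CT26 minus MC38 and rests on 14 and 50 counts in CT26.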

How the results depend on the processing

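Under the alternatives there were 1564 values of members past the threshold in the fits reported. Of these, 1467 kept their direction and side of the threshold, 96 were no longer past it and 1 lost its direction. Most of the 1564 values were control-agonist levels between lines, which seldom moved. Effects and their differences moved more. For example, 3 of 4 calls in CT26 minus E0771 were lost with only those 2 lines, and 12 of 14 in MC38 with the shared spread. Of 2296 values of members not past the threshold, 95 were past it under an alternative, 11 of them in E0771. The value that lost its direction was the control-agonist level of Slc6a13 in CT26 minus E0771, which rests on 0 and 2 counts. It ranged from -4.94 without E0771 control replicate 2 to 0.00 without E0771 control replicate 1. With the spread shared over 14 libraries, 7 members were lower in CT26 instead of 11, 2 were higher in E0771 instead of 0, and in MC38 0 were higher and 2 lower instead of 4 and 10. DESeq2 called 6 members lower in MC38 and 1 higher in E0771, and without the filter 1 was higher in E0771. Calls over all genes moved too, as given above for DESeq2 and the shared spread. For the difference CT26 minus E0771, 1 member instead of 2 was higher without the filter, by DESeq2, by voom and with only those 2 lines. There, 1 was lower with RLE size factors, without the filter and by voom, 5 by DESeq2 and 0 with only those 2 lines, instead of 2. For CT26 minus MC38, 5 were higher by voom and 4 with only those 2 lines instead of 2, and 1 was lower by DESeq2, 4 by voom and 5 with only those 2 lines instead of 0. For E0771 minus MC38, 2 were higher by DESeq2 and 0 with only those 2 lines, instead of 1. Over all genes, CT26 minus MC38 had 1150 higher and 1442 lower by voom, instead of 290 and 267. With only the lines CT26 and MC38 it had 910 and 1626. The cause was not tested.

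Replicate numbers are shared by the agonist groups, but nothing in the labels says that they mark a shared culture or day. Deviations of same-numbered libraries correlated at 0.64 in E0771, at 0.09, 0.08 and 0.26 in CT26 and at -0.02 in MC38. With the replicate block, 7 members were higher in E0771 instead of 0, namely Slc43a2, Slc6a4, Slc6a8, Slc6a9, Slc7a11, Slc7a3 and Slc7a6os. Over all 11728 genes in E0771, the block called 1244 higher and 1217 lower, instead of 180 and 3. With the replicate block, 7 members were lower in CT26 minus E0771, 4 were higher and 5 lower in CT26 minus MC38, and 3 were higher in E0771 minus MC38. Over all 14657 genes, the block called 480 higher and 1058 lower in CT26 minus E0771, instead of 157 and 412. In CT26 minus MC38 it called 785 and 1032, instead of 290 and 267. In E0771 minus MC38 it called 627 and 253, instead of 264 and 43.

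Leaving out 1 library at a time gave 5 to 7 higher and 11 to 12 lower members in CT26, 0 to 0 in either direction in E0771, and 4 to 4 higher and 8 to 11 lower in MC38. For the differences it gave 1 to 3 higher and 0 to 5 lower in CT26 minus E0771, 1 to 3 higher and 0 to 0 lower in CT26 minus MC38, and 0 to 3 higher and 0 to 1 lower in E0771 minus MC38. Counts of members that differ between lines at control agonist stayed within 1.5 times under every alternative run. Of 406 list counts under the alternatives, 314 stayed within that range and 92 moved. E0771 and MC38 had fewer counts per group than 1 CT26 library, so members under 0.5 CPM could rarely be tested there.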
